A study of Mus musculus with 11 samples.

Results

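This report sets Epi-Sox2 cells against EpiSC-GFP+ cells, both of them mouse epiblast stem cell cultures in which genes of the naive, embryonic stem cell state were raised over other cells of their own line. Epi-Sox2 are male GOF18 epiblast stem cells made to overexpress wild-type Sox2 and kept in conditioned medium (CM). EpiSC-GFP+ are male E3 epiblast stem cells, kept in CM as well and taken, by FACS, from the fraction positive for an Oct4-GFP reporter, in which green fluorescent protein reports Oct4. Each group had 2 arrays, labelled as biological replicates, so the comparison rests on 4 of the 11 arrays of the series. Genes entered if a probe had a detection p-value under 0.01 on both arrays of at least 1 of these groups, which held for 8290 of 18312 genes, counting 612 probes without a gene symbol as genes. Of the 8290, 7149 passed in both groups, 918 through Epi-Sox2 alone and 223 through EpiSC-GFP+ alone.

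The series holds total RNA of 6 kinds of culture on expression bead arrays. Besides the groups above, values are given for EpiSC, the male GOF18 line without Sox2 overexpression, and for EpiSC-GFP-, the E3 fraction negative for the reporter signal. Values are also given for ESC, male embryonic stem cells. Each of these groups had 2 arrays. The sources used here do not give the construct or promoter that drove Sox2, whether Epi-Sox2 is 1 clone, or the medium of EpiSC. The GOF18 and E3 lines differ between the groups together with the overexpression and the sort, and these cannot be told apart in the direct comparison. EpiSC against EpiSC-GFP- compares the same pair of lines on arrays that the direct comparison does not use. EpiSC-GFP- was sorted and no sort is given for EpiSC, so line and sort differ together there. The term line difference covers both. The difference between both comparisons, here called the change in the line difference, was tested as 1 contrast.

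Embryonic stem cells stand for the naive pluripotent state of the embryo before implantation, which rests on factors such as Klf4, Esrrb and Tbx3 beside Oct4, Sox2 and Nanog. Epiblast stem cells stand for the primed state after implantation, which depends on Fgf and on Nodal or activin signalling, expresses Fgf5 and Otx2 and has most naive factors silenced. Sox2 and Oct4 bind DNA side by side at many pluripotency genes, Nanog among them.

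The mean intensity of the 4 arrays ran from 283.6 to 310.7. Epi-Sox2 had 11305 and 11288 of 25697 probes detected, and EpiSC-GFP+ had 10270 and 10315. Over the 8290 tested genes, log2 values of replicate arrays correlated at 0.994 in Epi-Sox2 and 0.992 in EpiSC-GFP+. Arrays of the different groups correlated at 0.948 on average. The primed markers Fgf5, Otx2, Pou3f1, Dnmt3b and Fgf8 were detected on all 4 arrays. Fgf8 averaged 5.72 in Epi-Sox2 against 9.20 in EpiSC, and 5.94 in EpiSC-GFP+ against 7.74 in EpiSC-GFP-. Fgf5 averaged 7.31 in Epi-Sox2 against 9.80 in EpiSC, and 6.90 in EpiSC-GFP+ against 9.10 in EpiSC-GFP-. Otx2 and Dnmt3b were slightly higher in EpiSC-GFP+ than in EpiSC-GFP-. Of 29 fibroblast and feeder cell genes on the array, 17 were detected on at least 1 array in Epi-Sox2 and 11 in EpiSC-GFP+. Their summed linear signal was 6886.5 and 6666.9 in Epi-Sox2 against 5618.3 and 5642.5 in EpiSC-GFP+. This sum leans on its brightest members, Ccn2 (mean log2 11.82 in Epi-Sox2 against 11.56 in EpiSC-GFP+) and Acta2 (10.45 against 9.04). Ccn1 (7.71 against 8.87) and others were lower in Epi-Sox2. The collagens Col1a2 and Col3a1, and Dcn, Lum and Postn, which define fibroblasts, were not detected on any of these 4 arrays, whereas Bgn, Col6a1 and Thbs1 were detected on 2 and Col1a1, Col6a2 and S100a4 on 1 of the Epi-Sox2 arrays, and on 0 of the EpiSC-GFP+ arrays. Their part in the results was not tested.

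Sox2, the factor overexpressed in the GOF18 cells, was lower in Epi-Sox2 than in EpiSC-GFP+ on its brighter probe. It is not known whether either Sox2 probe reads the introduced copy, so these values may leave out part of the Sox2 RNA. Log2 intensity was 8.51 and 8.61 in Epi-Sox2, against 9.44 and 9.36 in EpiSC-GFP+. The groups did not overlap, and the log2 difference was -0.84 (SE 0.12, adjusted p = 0.000726, limma). The dimmer Sox2 probe gave 5.07 and 5.13 in Epi-Sox2, against 4.87 and 4.96 in EpiSC-GFP+, where it was not detected. Its difference of 0.18 did not pass the test (adjusted p = 0.28 over all passing probes). On the brighter probe, EpiSC had 7.74 and 7.51, and EpiSC-GFP- had 8.98 and 9.03. Epi-Sox2 thus lay above its own line, by 0.93, while both E3 fractions lay above both GOF18 cultures. The line difference without overexpression was -1.38, and its change of 0.54 (SE 0.17) did not pass the test (adjusted p = 0.055).

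Pou5f1, which encodes Oct4, was lower in both comparisons of the lines on its brighter probe, with no call on its other probe. It measured 12.23 and 12.46 in Epi-Sox2, against 13.15 and 13.10 in EpiSC-GFP+, a log2 difference of -0.78 (SE 0.12, adjusted p = 0.000973). EpiSC against EpiSC-GFP- differed by -0.84 on the same probe. The other probe gave a difference of -0.13 between Epi-Sox2 and EpiSC-GFP+ (adjusted p = 0.461 over all passing probes). Nanog, the third factor of the core network, measured 9.09 and 8.83 in Epi-Sox2 and 9.02 and 9.13 in EpiSC-GFP+. These values overlapped, and the difference of -0.12 (SE 0.19) did not pass the test (adjusted p = 0.625). In the cells of the same lines Nanog was higher by 1.24 in EpiSC than in EpiSC-GFP-, so the line difference of Nanog changed by -1.36 (SE 0.26, adjusted p = 0.0098).

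The promoter of Nanog is shown because it carries the paired Sox and Oct motif. The sequence is from RefSeq (GRCm38.p6), chr6:122707239-122707538, + strand, 300 bases around the start of the gene. Capitals mark a Sox motif CATTGT and an Oct motif ATGC with 1 base between them, read on the other strand.
Nanog: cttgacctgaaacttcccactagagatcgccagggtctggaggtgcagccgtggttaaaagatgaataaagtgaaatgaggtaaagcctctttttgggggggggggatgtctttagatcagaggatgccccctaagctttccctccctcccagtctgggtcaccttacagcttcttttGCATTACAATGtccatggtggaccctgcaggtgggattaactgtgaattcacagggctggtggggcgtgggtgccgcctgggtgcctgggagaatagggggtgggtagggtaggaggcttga
Both strands were searched, and 18 of 27025 genes with a promoter entry (0.0666%) held this motif in the same window. Of 17 tested naive genes with an entry, 1 held it, which is Nanog. A match in this window is a description of letters, and binding was not measured here.

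Klf4, a naive factor that epiblast stem cells largely lack, was among the genes that fell most. It measured 5.33 and 5.91 in Epi-Sox2, against 8.34 and 8.35 in EpiSC-GFP+, with 8.56 on average in ESC. The groups were far apart, with EpiSC-GFP+ close to ESC, and the log2 difference was -2.72 (SE 0.20, adjusted p = 4.26e-05), a level 6.6-fold lower in Epi-Sox2. Both other Klf4 probes were lower too, by 1.27 and 1.78 in size. In EpiSC and EpiSC-GFP- the main probe was not detected, so the fitted change in the line difference, -2.65 (SE 0.29, adjusted p = 0.00104), rests on background signal in these groups and is no exact size.

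Ooep, an oocyte-expressed gene that is also high in embryonic stem cells, was the other marker that fell. It measured 8.98 and 9.08 in Epi-Sox2, against 11.14 and 11.26 in EpiSC-GFP+. Both groups lay above their own lines, which had 5.60 and 5.56 in EpiSC and 5.99 and 5.90 in EpiSC-GFP-, and below the 12.46 of ESC. The difference was -2.17 (SE 0.11, adjusted p = 1.24e-05), or 4.49-fold lower in Epi-Sox2, and the change in the line difference was -1.80 (SE 0.16).

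Vstm2l, which encodes an immunoglobulin domain protein, had the largest rise of all named genes called. It measured 12.02 and 11.84 in Epi-Sox2, against 7.10 and 6.94 in EpiSC-GFP+. The log2 difference was 4.91 (SE 0.15, adjusted p = 4.18e-07), a 30.0-fold higher level in Epi-Sox2. EpiSC had 7.88 and 8.23, EpiSC-GFP- had 7.64 and 7.51, and ESC averaged 4.51, so the high level was found in Epi-Sox2 alone of these 5 groups. The change in the line difference was 4.43 (SE 0.21, adjusted p = 2.6e-05). Lefty2, a secreted inhibitor and target of Nodal signalling, measured 11.21 and 11.33 in Epi-Sox2, against 9.78 and 9.75 in EpiSC-GFP+. Its difference was 1.50 (SE 0.12, adjusted p = 4.99e-05), or 2.83-fold higher in Epi-Sox2, and the change in the line difference was 1.81 (SE 0.17, adjusted p = 0.000693).

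**Figure D1:**
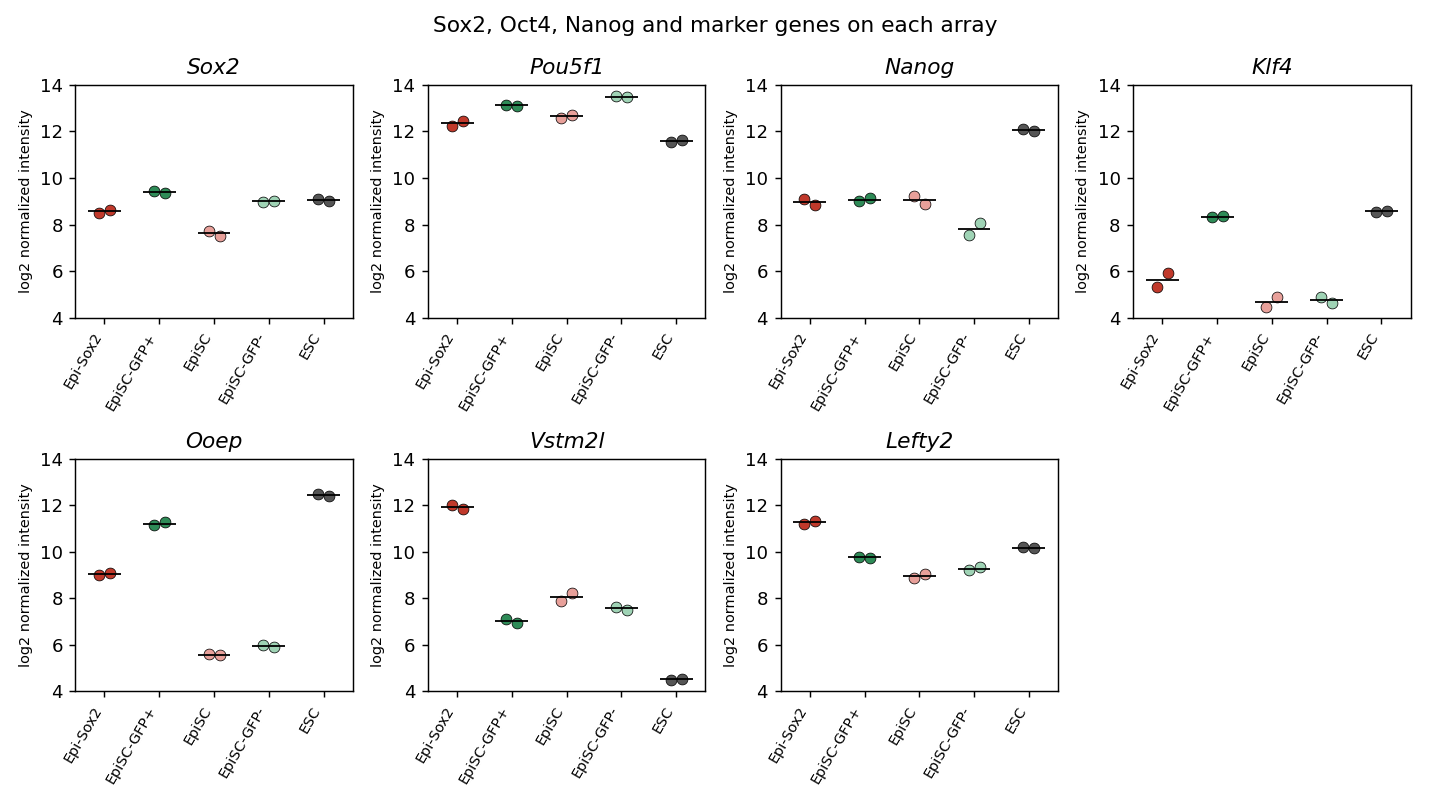
Log2 normalized intensity (y axis) of Sox2, Pou5f1, Nanog, Klf4, Ooep, Vstm2l and Lefty2 on each array of 5 groups (x axis). Points are the 2 arrays of a group and lines their mean. Klf4 lies near 8.3 in EpiSC-GFP+ and below 6 in Epi-Sox2, and Vstm2l near 12 in Epi-Sox2 alone.

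Across all genes tested, 4021 of 8290 (48.5%) differed between Epi-Sox2 and EpiSC-GFP+ at an adjusted p under 0.05. Of these, 2132 (25.7%) were higher and 1889 (22.8%) lower in Epi-Sox2. A difference of at least 1 log2 unit was reached by 922 genes (11.1%), 545 higher (6.57%) and 377 lower (4.55%). In 6477 genes (78.1%) the 2 arrays of one group lay on the same side of both arrays of the other, and 0 of the 4021 called genes overlapped. The genes that passed through 1 group alone were called more often where that group was EpiSC-GFP+, with 166 of 223 called (74.4%), and about as often as the rest where it was Epi-Sox2, with 457 of 918 (49.8%), against 3398 of 7149 (47.5%) that passed in both. Where arrays were scaled by their median and not by quantiles, the median of all genes moved to 0.138, against 0.0387 in the main setting, and 66.9% of the calls were higher in Epi-Sox2, against 53%.

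The largest rises after Vstm2l were in genes of varied function. Abcb1b, a drug efflux pump, measured 9.27 and 9.30 in Epi-Sox2, against 6.89 and 6.55 in EpiSC-GFP+, a difference of 2.57 (SE 0.13, adjusted p = 1.24e-05). Nt5e, the surface enzyme CD73 that makes adenosine, measured 7.48 and 7.75 in Epi-Sox2, against 4.79 and 5.33 in EpiSC-GFP+, a difference of 2.56. The helix-loop-helix inhibitor Id2 had 7.02 and 6.72 in Epi-Sox2 and was not detected in EpiSC-GFP+, which makes it at least 3.37-fold higher in Epi-Sox2. On the same footing Cited1, a transcriptional co-regulator, was at least 4.41-fold higher, the leukotriene receptor gene Ltb4r1 at least 3.15-fold and the peptidase gene Tpp2 at least 2.86-fold. For these bounds the dim group was set, on each array, to its weakest detected probe or to the gene's signal if that was larger. The remaining rises were in Pid1 (2.40), Trim67 (2.32), the acyl-CoA thioesterase gene Acot1 (2.31), the nocturnin gene Noct (2.13) and the imprinted gene Mest (2.12). The second passing probe of Noct did not pass the test (difference 0.45), nor did 1 of 3 probes of Mest (0.92). Nt5e, Trim67 and Noct passed the detection rule through Epi-Sox2 alone, so their differences are no exact sizes.

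The largest falls included immediate early genes, metabolic enzymes and naive genes. Fos, a subunit of the AP-1 transcription factor, measured 5.89 and 5.65 in Epi-Sox2, against 8.91 and 8.88 in EpiSC-GFP+. No called gene with a full symbol fell further, at -3.13 (SE 0.13, adjusted p = 3.28e-06) or 8.73-fold lower. Its partner gene Fosb was not detected in Epi-Sox2 and measured 6.67 and 7.08 in EpiSC-GFP+, at least 4.02-fold lower in Epi-Sox2. Aire, best known as a regulator of self-antigen expression in the thymus, had 4.77 and 5.13 in Epi-Sox2, against 8.09 and 7.58 in EpiSC-GFP+, a difference of -2.89. Slc7a11, the cystine importer, had 4.78 and 4.99 in Epi-Sox2, against 7.50 and 7.32 in EpiSC-GFP+, a difference of -2.53 (SE 0.14). Aire and Slc7a11 passed the detection rule through EpiSC-GFP+ alone, so their differences are no exact sizes. The glutathione transferase gene Gstp2 fell by 2.49, and the septin gene Septin1 by 2.38. Cdyl2, a chromodomain gene, fell by 2.37, and the enolase gene Eno2 by 2.29. Triml1 was not detected in Epi-Sox2 and was at least 3.98-fold lower there. Ndrg1 and Pfkp, which also belong to these 12, are described with the glycolysis and hypoxia genes.

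**Figure D2:**
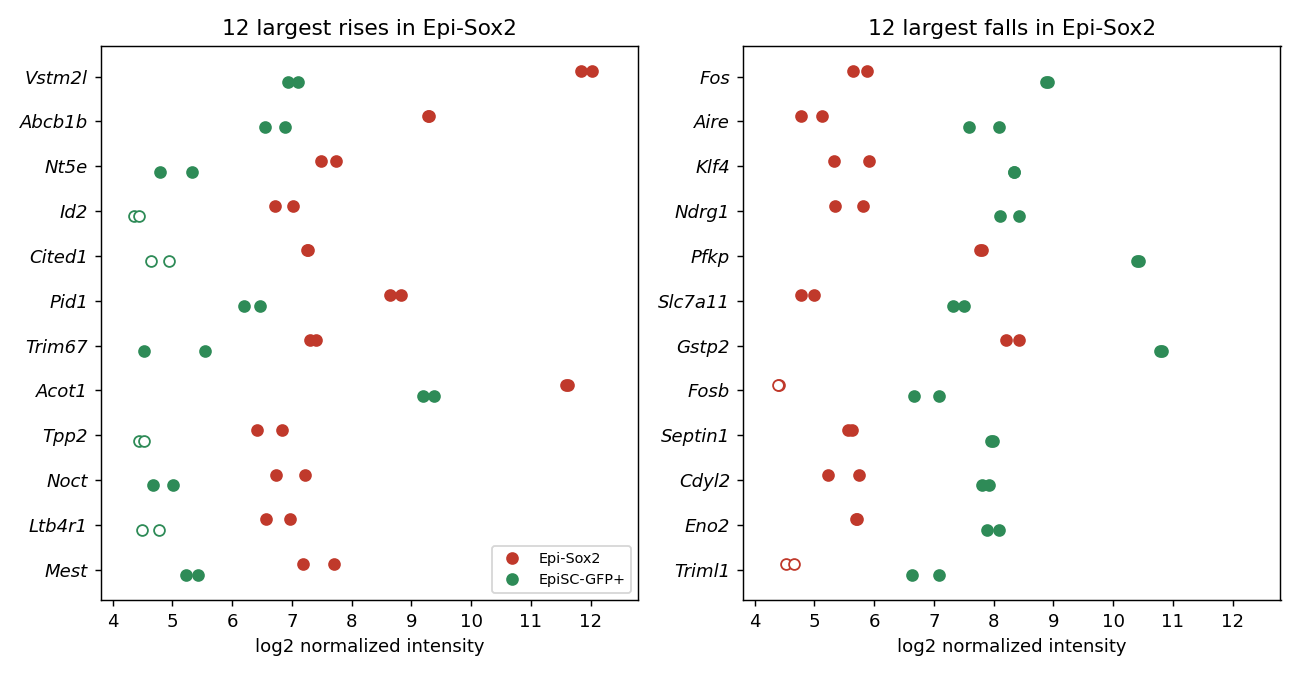
Log2 normalized intensity (x axis) of the 12 largest rises and the 12 largest falls in Epi-Sox2 (red, upper point of each row) against EpiSC-GFP+ (green, lower point), 1 row per gene and 2 arrays per group. Open points mark a group in which no probe of the gene was detected. The 2 groups do not overlap in any row, and Vstm2l is the widest apart.

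Genes of the naive state were on the whole lower in Epi-Sox2 than in EpiSC-GFP+. Of 26 tested naive genes, 18 were lower, 3 higher and 5 did not pass the test, beside 22.8% lower and 25.7% higher among all genes, and their median difference was -1.26, against 0.04 over all genes. Of the 25 that passed in both groups 17 were lower and 3 higher. Besides Klf4, Aire and Ooep, the 4 largest differences included Vstm2l, which was low in ESC. The oestrogen-related receptor gene Esrrb showed the middle of the range, with 10.63 and 10.41 in Epi-Sox2, against 11.73 and 11.76 in EpiSC-GFP+, a difference of -1.23. The falls ran from -0.98 in Dppa4 to -2.89 in Aire, whose size is not exact, as Aire passed the detection rule through EpiSC-GFP+ alone. The 3 that were higher were Vstm2l, Stat3 (0.97), which carries the signal of leukaemia inhibitory factor, and the adhesion gene Cdh1 (1.26). One of 3 Stat3 probes pointed the other way, at -0.24, without passing the test. Because the arrays measured bulk RNA, fewer cells with a naive pattern and less naive RNA per cell cannot be told apart.

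Both groups had most of these genes above their own line. Against EpiSC, 20 of the 26 were higher in Epi-Sox2 and 1 lower, beside 13.1% higher and 11.0% lower among all genes. Against EpiSC-GFP-, 21 of the 26 were higher in EpiSC-GFP+ and 1 lower, beside 16.3% and 15.4%. These are separate arrays, and 17 genes were higher in both. Over all genes, 378 were higher in both, which is 34.8% of the rises in Epi-Sox2 and 28.0% of the rises in EpiSC-GFP+. The detection rule asked for a signal in Epi-Sox2 or EpiSC-GFP+ and not in EpiSC or EpiSC-GFP-. For genes silent in EpiSC or EpiSC-GFP- it thus favours rises in these counts. Esrrb rose by 3.42 over EpiSC in Epi-Sox2 and by 3.62 over EpiSC-GFP- in EpiSC-GFP+. Dppa5a, an RNA-binding protein gene of pluripotent cells, rose by 4.32 in Epi-Sox2 and by 3.61 in EpiSC-GFP+. The homeobox gene Gbx2 rose by 3.11 in Epi-Sox2 and by 2.24 in EpiSC-GFP+, to 8.63 and 8.61 in Epi-Sox2 and 8.59 and 8.51 in EpiSC-GFP+, with no difference called. Klf4 was at least 7.68-fold higher in EpiSC-GFP+ than in EpiSC-GFP-, where it was not detected. The comparison with EpiSC made 2001 calls over all genes, but 775 without Epi-Sox2 replicate 1 and 1070 without replicate 2. The comparison with EpiSC-GFP- made 2629, but 1465 and 1486 without EpiSC-GFP+ replicates 1 and 2 and 1725 without EpiSC-GFP- replicate 2. With median scaling 92.3% of the calls between the E3 fractions were higher in EpiSC-GFP+, against 51.4%, and the median of all genes moved to 0.305.

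**Figure D3:**
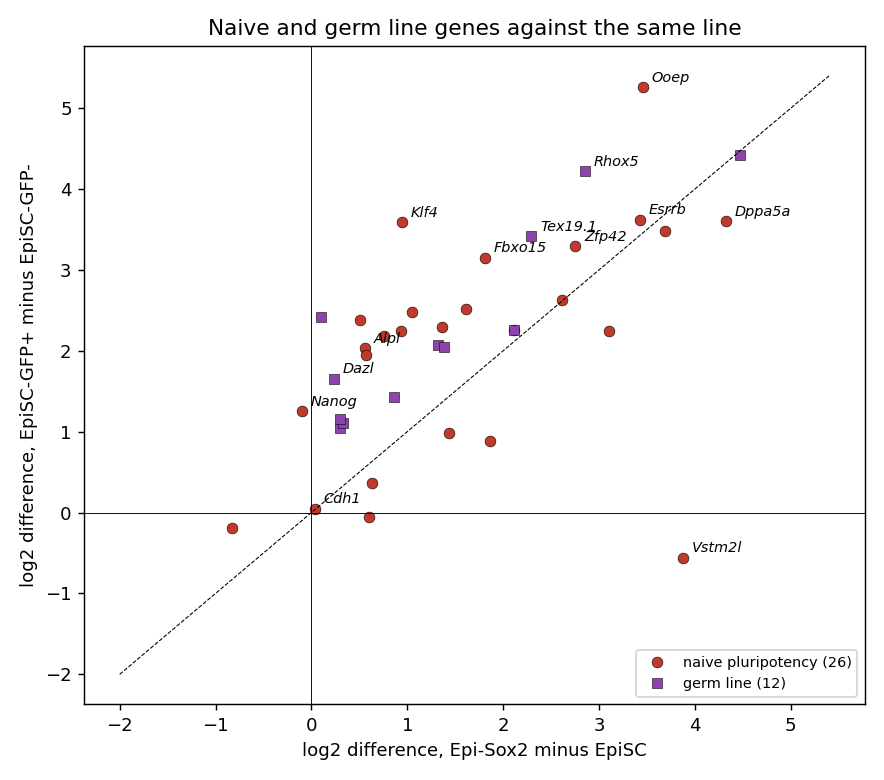
Log2 difference of each tested naive (circles, 26) and germ line (squares, 12) gene between Epi-Sox2 and EpiSC (x axis) and between EpiSC-GFP+ and EpiSC-GFP- (y axis). The dashed line marks equal differences. Genes not detected in EpiSC or EpiSC-GFP-, such as Rbmxl2, are drawn at fitted values, which are no exact sizes. Vstm2l lies at 3.88 and -0.56.

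Germ line genes, many of which are kept silent by DNA methylation in somatic cells, were lower in Epi-Sox2 as well. Of 12 tested members 11 were lower and 0 higher, beside 22.8% and 25.7% of all genes, with a median of -1.10. Of the 12, 4 had passed the detection rule through EpiSC-GFP+ alone, where they are high. Of the 8 that passed in both groups 7 were lower. Tex19.1, which acts against transposable elements, measured 8.71 and 8.54 in Epi-Sox2, against 10.32 and 10.31 in EpiSC-GFP+, a difference of -1.69 (SE 0.14, adjusted p = 5.53e-05). The reproductive homeobox gene Rhox5 differed by -1.91, the tubulin gene Tuba3a by -1.97, and the germ cell RNA-binding gene Dazl was not detected in Epi-Sox2, at least 2.21-fold lower. Rbmxl2 was the 1 member not called, at -0.27. It had 8.89 and 8.94 in Epi-Sox2 and 9.14 and 9.23 in EpiSC-GFP+, and was not detected in EpiSC or EpiSC-GFP-. Against their own lines 7 of the 12 were higher in Epi-Sox2 and 12 of 12 in EpiSC-GFP+, beside 13.1% and 16.3% of all genes. EpiSC was lower than EpiSC-GFP- in 3 of the 12, beside 18.6% of all genes, with a median of -0.21. The line difference had changed downwards in 7 of the 12 and upwards in 0, beside 9.89% and 10.7% of all genes. The counts out of 12 include the 4 genes that entered only because they were detected in EpiSC-GFP+. For these the detection rule itself favours a high value in EpiSC-GFP+. For all 12 the rule asked for no signal in EpiSC or EpiSC-GFP-, so it also favours the rises over the own lines. Of 26 germ line genes on the array 12 were tested. In a list of X-linked and related genes, 6 of 6 tested were lower in Epi-Sox2 (5 of the 5 that passed in both groups), 3 of them Rhox genes counted above. Xlr4a, of the X-linked lymphocyte-regulated family, measured 6.66 and 6.98 in Epi-Sox2, against 8.64 and 8.66 in EpiSC-GFP+, while EpiSC was at least 1.71-fold above EpiSC-GFP-, where it was not detected. The fitted change of its line difference was -3.65 (SE 0.20).

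Genes of the primed epiblast were more often higher in Epi-Sox2. Of 18 tested, 9 were higher and 2 lower, with a median of 0.44, beside 25.7% higher and 22.8% lower among all genes. Lefty1 and Lefty2, the Nodal antagonist genes, rose by 1.48 and 1.50, the activin antagonist gene Fst by 1.49 and the growth factor binding protein gene Igfbp3 by 1.41. Lefty2 did not mark the primed state here, as it averaged 10.17 in ESC, against 8.97 in EpiSC and 9.28 in EpiSC-GFP-. Lefty1, Fst and Igfbp3 were lower in ESC than in EpiSC and EpiSC-GFP-. Lefty1 measured 12.89 and 12.72 in Epi-Sox2, against 11.30 and 11.35 in EpiSC-GFP+. Fgf5, the usual marker of this state, had means of 7.31 in Epi-Sox2 and 6.90 in EpiSC-GFP+, and Otx2 had 9.84 in Epi-Sox2 and 9.55 in EpiSC-GFP+. Neither difference passed the test. Against EpiSC, 6 of the 18 primed genes were lower in Epi-Sox2 and 2 higher, beside 11.0% and 13.1% of all genes. Against EpiSC-GFP-, 8 of the 18 were lower in EpiSC-GFP+ and 2 higher, beside 15.4% and 16.3%.

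Nodal itself, a ligand of this pathway, differed by 0.33 without passing the test. Of 14 tested Nodal and activin genes 6 were higher and 2 lower in Epi-Sox2, beside 25.7% and 22.8% of all genes. The higher ones were Lefty1, Lefty2 and Fst, the co-receptor gene Tdgf1 (1.47), the Smad repressor gene Skil (1.36) and the common mediator Smad4 (1.11). The second probe of Tdgf1 gave -0.36 and did not pass the test. The lower ones were Foxh1 (-1.45), the DNA-binding partner of the pathway's Smads, and the ligand gene Gdf3 (-0.41). Of the Wnt genes, 5 of 14 were higher and 2 lower, beside the same shares of all genes. The Wnt targets Sp5 (not detected in EpiSC-GFP+, at least 2.35-fold higher) and Axin2 (1.50), and the ligand gene Wnt8a (1.03), were higher in Epi-Sox2, and the ligand gene Wnt7b had a difference of 1.00 that did not pass the test (adjusted p = 0.0545).

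Other signalling pathways were mixed, and their counts stand beside 25.7% higher and 22.8% lower among all genes. Of 10 BMP genes 3 were higher and 3 lower. Id2 was higher, while Id1, a direct BMP target, fell by 1.49, the ligand gene Bmp4 by 1.30 and the inhibitory Smad6 by 1.17. Of 18 FGF and ERK genes 3 were higher and 4 lower. The ERK phosphatase genes Dusp6 (1.14) and Dusp4 (0.98) and the inhibitor gene Spred1 (0.86) were higher, and Egr1 fell by 1.90. For Dusp6 and Dusp4, 1 of 3 passing probes each did not pass the test. Of 16 LIF and Stat3 genes 6 were higher and 5 lower, among them Klf4 and Fos, and Lifr, which encodes the receptor, was lower by 0.93 in size. Of 14 genes of the Klf and Sox families 2 were higher and 7 lower, with Klf3 at 1.18, Sox15 at -1.28 and Sox21 at -1.33.

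Immediate early genes, which are switched on within minutes by growth factors or stress, were lower in Epi-Sox2 as a group. Of 12 tested, 7 were lower and 0 higher, beside 22.8% and 25.7% of all genes, with a median of -0.68. Of the 11 that passed in both groups 6 were lower. Egr1 measured 8.83 and 8.89 in Epi-Sox2, against 10.72 and 10.79 in EpiSC-GFP+. Ier3 differed by -1.38. The 7 called genes were also lower in EpiSC than in EpiSC-GFP-, on other arrays, beside 38.8% of all genes lower in Epi-Sox2. Fos differed there by -2.55. EpiSC-GFP- cells passed through the sorter like EpiSC-GFP+ cells, and no sort is given for the GOF18 cultures, so line and sort cannot be told apart for these genes.

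Genes of glycolysis and of the response to low oxygen were lower in Epi-Sox2 too. Of 21 tested, 15 were lower and 0 higher, beside 22.8% and 25.7% of all genes, with a median of -0.56. Ndrg1, a hypoxia-induced gene, measured 5.34 and 5.81 in Epi-Sox2, against 8.42 and 8.10 in EpiSC-GFP+, a difference of -2.68 (SE 0.18, adjusted p = 3.26e-05). Pfkp, the platelet form of phosphofructokinase, measured 7.81 and 7.77 in Epi-Sox2, against 10.42 and 10.40 in EpiSC-GFP+, a difference of -2.62 (SE 0.16). The aldolase gene Aldoc had 6.40 and 6.49 in Epi-Sox2, against 8.38 and 8.46 in EpiSC-GFP+, a difference of -1.97. Ddit4, an inhibitor of the growth kinase mTOR, had 9.87 and 9.80 in Epi-Sox2, against 11.33 and 11.30 in EpiSC-GFP+, a difference of -1.48. The second probes of Ndrg1 and Pfkp were lower as well, by 1.13 and 1.25 in size. Gapdh (0.01), the glucose transporter gene Slc2a3 (0.23) and Vegfa (0.12) were among the 6 that did not pass the test, although the second probe of Vegfa was called lower, at -1.23. Of the 15 lower genes, 9 were also lower in EpiSC than in EpiSC-GFP-, beside 38.8% of all genes lower in Epi-Sox2.

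Promoters of 3 of these genes are shown because they hold the core letters ACGTG of the hypoxia response motif and because the genes moved together. All are from RefSeq (GRCm38.p6), 300 bases around the start of each gene, 5′ to 3′ on the gene's strand, with the core in capitals (CACGT where it lies on the other strand). Aldoc lies at chr11:78322823-78323122 (+ strand), Ddit4 at chr10:59951721-59952020 (- strand) and Egln3, an oxygen-sensing hydroxylase gene that differed by -1.47, at chr12:54203825-54204124 (- strand).
Aldoc: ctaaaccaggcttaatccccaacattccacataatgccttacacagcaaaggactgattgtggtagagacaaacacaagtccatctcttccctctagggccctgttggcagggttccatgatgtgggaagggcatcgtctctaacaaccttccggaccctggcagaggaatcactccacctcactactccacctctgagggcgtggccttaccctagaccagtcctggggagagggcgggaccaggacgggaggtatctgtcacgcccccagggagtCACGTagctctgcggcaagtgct
Ddit4: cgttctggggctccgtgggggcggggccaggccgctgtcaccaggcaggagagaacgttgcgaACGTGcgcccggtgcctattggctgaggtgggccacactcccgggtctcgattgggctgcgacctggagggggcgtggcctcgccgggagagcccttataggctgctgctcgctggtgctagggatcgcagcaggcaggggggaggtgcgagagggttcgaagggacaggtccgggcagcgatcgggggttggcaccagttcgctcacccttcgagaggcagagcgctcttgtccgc
Egln3: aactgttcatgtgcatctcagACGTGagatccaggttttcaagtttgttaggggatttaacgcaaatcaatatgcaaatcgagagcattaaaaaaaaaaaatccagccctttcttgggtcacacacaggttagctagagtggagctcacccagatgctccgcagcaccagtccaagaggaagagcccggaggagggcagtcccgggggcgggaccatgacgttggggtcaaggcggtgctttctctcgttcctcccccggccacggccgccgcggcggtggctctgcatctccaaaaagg
Both strands were searched, and a gene with several promoter entries counted if any held the core. Of the 21 tested members 19 had an entry, and 15 of the 19 (78.9%) held the core. The share was 30.5% of the 6292 tested genes with an entry and 21.8% of all 27025. Among the members called lower 11 of 14 held it, close to the share of the whole list, and the core is also part of motifs of other factors.

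**Figure D4:**
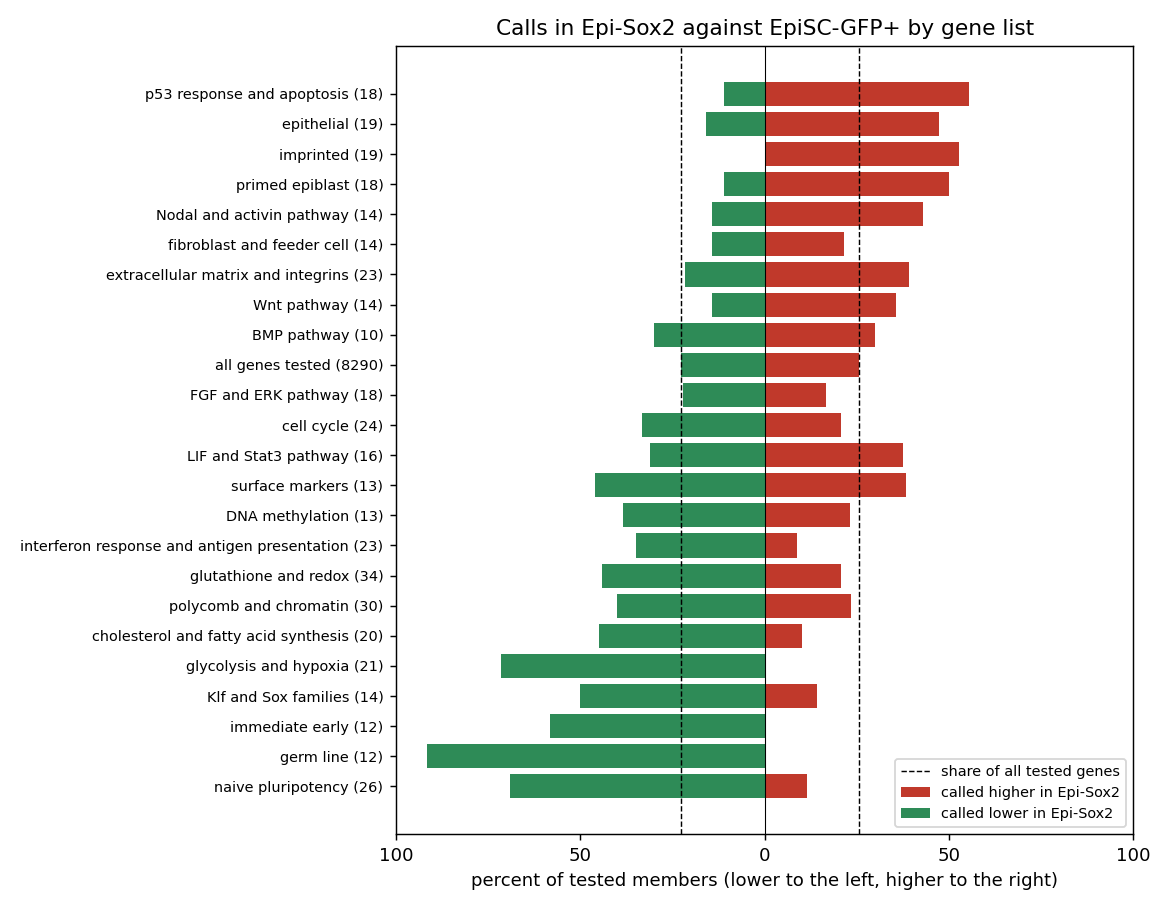
Percent of the tested members of each list with at least 10 tested genes (number in brackets) called higher (red, to the right) or lower (green, to the left) in Epi-Sox2 against EpiSC-GFP+. Dashed lines mark the shares of all tested genes, 25.7% and 22.8%. Naive, germ line, immediate early and glycolysis genes lie far to the left of the lower share.

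Redox and sterol genes were lower on balance, beside 25.7% higher and 22.8% lower among all genes. Of 34 glutathione and redox genes 7 were higher and 15 lower. Besides Slc7a11 and Gstp2, the glutathione transferase gene Gsta4 fell by 1.64, while Gstt3 rose by 1.54. Of 20 genes of cholesterol and fatty acid synthesis 2 were higher and 9 lower. Srebf2, the master regulator of cholesterol synthesis, fell by 1.47, the mevalonate enzyme gene Mvd by 1.24 and Cyp51 by 0.90, whereas Acaca, the first enzyme of fatty acid synthesis, rose by 1.07.

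Genes of the p53 response and of imprinted loci were higher on balance, beside 25.7% higher and 22.8% lower among all genes. Of 18 p53 and apoptosis genes 10 were higher and 2 lower, with a median of 0.70, and of the 16 that passed in both groups 8 were higher and 2 lower. Mdm2, which encodes the ligase that degrades p53, rose by 1.14, and the cyclin gene Ccng1 by 1.09. The anti-apoptotic Bcl2 (1.01) and the death receptor gene Fas, which averaged 5.42 in Epi-Sox2 against 4.29 in EpiSC-GFP+, passed the detection rule through Epi-Sox2 alone. Another Bcl2 probe gave 0.47 and did not pass the test. Trp53inp1 and Zmat3, named as further targets of p53 after their values were seen, rose by 0.87 and 0.75. In EpiSC against EpiSC-GFP- 3 of the 18 were higher and 2 lower, beside 21.3% and 18.6% of all genes. Of 19 imprinted genes 10 were higher and 0 lower, with a median of 0.45, and Mest, the growth inhibitor gene Cdkn1c (1.32), Nnat (1.27) and Ube3a (0.87) led them. Second probes of Snrpn (-1.29) and Tssc4 (-1.20) were called lower, so the count of 0 depends on the choice of probe. Cdkn1c was also among the 5 of 24 cell cycle genes that were higher, while 8 were lower, with Mcm3 and Pcna, both of the replication machinery, at -0.92 and -0.95.

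Epithelial and matrix genes were set beside the 25.7% higher and 22.8% lower among all genes. Of 19 epithelial genes 9 were higher and 3 lower, with the keratins Krt8 (1.35) and Krt19 (1.03), Cdh1 and its regulator Grhl2 (1.26) higher. Of 23 matrix and integrin genes 9 were higher and 5 lower, led by the integrin genes Itgb4 (1.61), Itgb5 (1.36) and Itga3 (1.25) and the membrane protease gene Mmp14 (1.30). Zeb1, a repressor of Cdh1, fell by 1.87. Of 14 tested genes of the fibroblast and feeder cell list 3 were higher and 2 lower. The largest were Acta2 at 1.41 and Ccn1 at -1.15, and the second passing probe of Ccn1 gave 0.34 without passing the test. Surface proteins were split, with 5 of 13 higher and 6 lower. Alpl, the alkaline phosphatase of pluripotent cells, fell by 2.01 and Cd9 by 1.31, and the second probe of Pecam1 (-1.40) gave 0.03.

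Chromatin and DNA methylation genes moved both ways. The counts here and for the lists that follow stand beside 25.7% higher and 22.8% lower among all genes. Of 30 polycomb and chromatin genes 7 were higher and 12 lower. Cbx2, a polycomb subunit, fell by 1.25 and the deacetylase gene Hdac1 by 1.02, and the demethylase gene Kdm4c rose by 1.16. Of 13 DNA methylation genes 3 were higher and 5 lower. Dnmt3l, the cofactor of the new-methylation enzymes, had means of 9.77 in Epi-Sox2 and 12.03 in EpiSC-GFP+, a difference of -2.25 that was -1.77 in EpiSC against EpiSC-GFP-. Uhrf1, which guides maintenance methylation, rose by 1.11. Of 23 genes of the interferon response and antigen presentation 2 were higher and 8 lower. Ifitm3 fell by 1.37 and Stat2 by 1.07, and Irf1 rose by 0.89 with 1 of its 4 probes called the other way. Few markers of differentiated lineages passed the detection rule, with 3 of 21 on the array for primitive streak and mesoderm, 4 of 21 for neuroectoderm and 7 of 21 for endoderm. Of the 7, 4 were higher and 1 lower in Epi-Sox2, with Dab2 (0.94) and Gata6 (not detected in EpiSC-GFP+, at least 1.6-fold higher) at the top. Of 7 trophectoderm genes 3 were higher, with Cited1, Krt8 and Krt18 (0.47), and 2 lower, and of 9 mesenchymal genes 2 were higher and 2 lower. The Y-linked gene Eif2s3y, detected in both groups of male cells, had means of 7.38 in Epi-Sox2 and 5.82 in EpiSC-GFP+ and differed by 1.61 in EpiSC against EpiSC-GFP-. The Y-linked Usp9y and Uty, which did not pass the detection rule in both groups, were also called higher in Epi-Sox2. Their fitted differences were 1.83 and 0.53. Of 6 tested sex chromosome genes 4 were higher and 0 lower.

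The same lines differed in many of these genes without the overexpression and without selection for the reporter signal, although EpiSC-GFP- was sorted as well. EpiSC against EpiSC-GFP- gave 3306 called genes (39.9%), 1767 higher (21.3%) and 1539 lower (18.6%). Of the 2132 genes higher in Epi-Sox2 than in EpiSC-GFP+, 1009 (47.3%) were also higher in EpiSC, which is 57.1% of the rises there, and 128 were lower. Of the 1889 lower genes, 733 (38.8%) were also lower in EpiSC, which is 47.6% of the falls there, and 74 were higher. Of the 922 genes past 1 log2 unit 514 (55.7%) were called the same way in the lines. Mest (2.46), Tpp2 (at least 2.78-fold, not detected in EpiSC-GFP-) and Noct (at least 2.21-fold, likewise) of the 12 largest rises, and Fos (-2.55), Eno2 (-2.13) and Pfkp (-1.83) of the 12 largest falls, differed between EpiSC and EpiSC-GFP- as well. With median scaling 96.8% of the calls between EpiSC and EpiSC-GFP- were higher, against 53.4% in the main setting, as the median of all genes moved to 0.479, so differences between EpiSC and EpiSC-GFP- that are smaller in size have no settled direction.

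**Figure D5:**
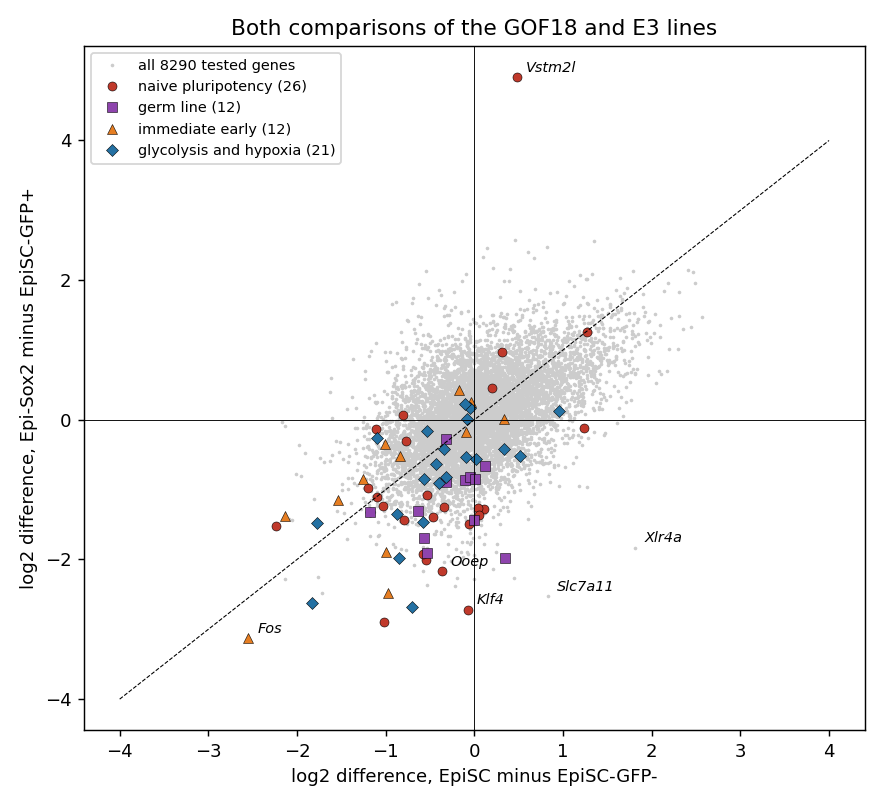
Log2 difference between EpiSC and EpiSC-GFP- (x axis) and between Epi-Sox2 and EpiSC-GFP+ (y axis) for all 8290 tested genes (grey) and 4 lists. The dashed line marks equal differences. Fos lies at -2.55 and -3.13, close to that line, and Klf4 at -0.08 and -2.72, far from it.

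The line difference changed in 1705 genes (20.6%), 885 upwards (10.7%) and 820 downwards (9.89%). This count rests on each of the 4 arrays compared first: it was 814 without Epi-Sox2 replicate 1, 879 without replicate 2, 964 without EpiSC-GFP+ replicate 1 and 991 without replicate 2. With median scaling 9.71% of the calls pointed upwards, against 51.9%, and the median of all genes was -0.406. After Vstm2l, the largest upward changes were in Ltb4r1 (2.67), the hormone gene Sct (2.58), the synaptic vesicle gene Svop (2.57), the carboxypeptidase gene Cpz (2.57), Eps8l2 (2.43), Sytl1 (2.38) and Cited1 (2.32). Ltb4r1, Cpz and Cited1 were not detected in EpiSC-GFP+, and Cited1 not in EpiSC-GFP- either, so their fitted values and rank are no exact sizes. Sct shows the pattern, with 7.84 and 8.04 in Epi-Sox2, against 6.05 and 6.53 in EpiSC-GFP+, while EpiSC lay below EpiSC-GFP- by 0.93 in size. The same opposite order was found in Ltb4r1, Svop, Cpz, Eps8l2 and Sytl1, where EpiSC was called lower than EpiSC-GFP-.

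The largest downward changes were in Xlr4a, Slc7a11 (-3.36), the microtubule-binding gene Mapt (-2.72), Klf4, the keratin gene Krt42 (-2.34), Tuba3a (-2.32), Triml1 (-2.27) and the chromatin remodelling gene Smarcd1 (-2.23). Fitted values are no exact sizes for Xlr4a and Tuba3a, not detected in EpiSC-GFP-, for Mapt, not detected in EpiSC or EpiSC-GFP-, for Triml1, detected in EpiSC-GFP+ alone of the 4 groups, and for Klf4. The same holds for Slc7a11, which did not pass the detection rule in Epi-Sox2. Mapt measured 5.84 and 5.32 in Epi-Sox2, against 7.78 and 7.91 in EpiSC-GFP+. Krt42 measured 6.03 and 6.08 in Epi-Sox2, against 8.13 and 8.24 in EpiSC-GFP+, with 8.93 on average in ESC. Slc7a11 and Smarcd1 were higher in EpiSC than in EpiSC-GFP-, by 0.83 and 1.27, and lower in Epi-Sox2 than in EpiSC-GFP+. The other passing probes of Smarcd1 gave differences of -0.60 and 0.07 between Epi-Sox2 and EpiSC-GFP+, and neither passed the test. Of 36 named genes with several passing probes, 20 had all of them called the same way.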

How the data were processed

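Bead arrays (MouseRef-8 v2) measured 11 samples, 2 in each group used here. The deposited scanner table holds bead intensity values that are not normalized, per the labels' design text, and a detection p-value per probe, which per the file headers stands beside each intensity column as the authors deposited it. BeadStudio 3.2, lumi and RMA are named in the submitters' processing notes. The authors also deposited log2 values of the same probes, whose background removal and further scaling stay unknown. Every column of them had a median of 2.64, and they were tried as an alternative.

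Intensities were corrected with normexp (offset 16), quantile-normalized and taken to log2 in limma 3.58.1 (R 4.3.3). Probes were named through the platform annotation, updated by Entrez number: 23978 had 1 symbol, 0 several and 1719 none. Each gene was represented by its brightest passing probe, and 1956 genes had several. Differences were fitted with limma over all 11 arrays, 1 mean per group, with 5 residual and 4.29 prior degrees of freedom, and p-values adjusted by Benjamini-Hochberg over 8290 genes at 0.05. The number of arrays limits the precision, and the method was tested on simulated data. Replicate numbers did not pair the arrays, with correlations of deviations from -0.019 to 0.10 in 10 pairs of groups.

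The members, the 31 gene lists and the tests were chosen with earlier results of these data known. Named genes are Pou5f1, Sox2, Nanog, the markers Klf4, Vstm2l, Lefty2 and Ooep, the 12 largest rises and falls of called genes without overlap and without a clone or predicted name, the 8 largest changes of the line difference each way, and the 4 members of each list that differed most, or fewer. Other genes, such as Esrrb, Dppa5a, Rbmxl2, Foxh1, Skil, Egln3 and Gapdh, are examples chosen after their values were seen. Alternatives covered the background correction, scaling, detection filter, probes, arrays fitted, variance trend, threshold, replicate block and each array left out.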

Additional observations from a re-analysis of the deposited data

Results flagged for a closer look

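The difference between the GOF18 and E3 lines was not the same with and without Sox2 overexpression and selection for the reporter signal in 1705 genes. This was tested as the contrast of both comparisons (limma, Benjamini-Hochberg). Of the named genes, the line difference moved upwards in Vstm2l by 4.43, Ltb4r1 by 2.67, Sct by 2.58, Svop by 2.57, Cpz by 2.57, Eps8l2 by 2.43, Sytl1 by 2.38, Cited1 by 2.32 and Lefty2 by 1.81 log2 units. It moved downwards in Nanog (-1.36), Ooep (-1.80), Smarcd1 (-2.23), Triml1 (-2.27), Tuba3a (-2.32), Krt42 (-2.34), Klf4 (-2.65), Mapt (-2.72), Slc7a11 (-3.36) and Xlr4a (-3.65). The values of Ltb4r1, Cpz, Cited1, Triml1, Tuba3a, Klf4, Mapt and Xlr4a are fitted against groups in which the gene was not detected and are no exact sizes. Nor is that of Slc7a11, which did not pass the detection rule in Epi-Sox2. No group has enough arrays to look for a single deviating array.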

How the results depend on the processing

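Among the named genes, 0 changed direction past the threshold under the alternatives run with 1 probe per gene. This covers Epi-Sox2 against EpiSC-GFP+ and the change in the line difference. The direction of other genes was not followed, and median scaling moved the balance of calls. For the change in the line difference 9.71% of the calls then pointed upwards, against 51.9%. Probe by probe, however, Bbc3, Ccnd1, Ehmt1, Irf1 and Tyk2 each had another probe called the opposite way. Counts of list members that passed in both groups were added after seeing the data. At a difference of at least 1 log2 unit the counts were 922 for Epi-Sox2 against EpiSC-GFP+, 757 for EpiSC against EpiSC-GFP-, 762 for the change in the line difference, 314 for Epi-Sox2 against EpiSC and 572 for EpiSC-GFP+ against EpiSC-GFP-. With only the arrays of the groups compared, fewer samples gave 1999 for EpiSC against EpiSC-GFP- and 1156 for Epi-Sox2 against EpiSC. Median scaling gave 1207 for Epi-Sox2 against EpiSC, and the cause was not tested. Leaving out 1 array gave 2833 to 2987 for Epi-Sox2 against EpiSC-GFP+, 2499 to 3366 for EpiSC against EpiSC-GFP-, 814 to 2468 for the change in the line difference, 775 to 2004 for Epi-Sox2 against EpiSC and 1465 to 1843 for EpiSC-GFP+ against EpiSC-GFP-. With the authors' values 3611 and 1176 genes passed for Epi-Sox2 against EpiSC-GFP+ and for the change. The numbers did not pair the arrays, and with the replicate number as a block 3988, 3231, 1592, 1890 and 2525 genes passed in these comparisons, in the order first given. List members were counted only in the alternatives with 1 probe per gene and no smallest size of difference. Over these, 17 to 19 naive and 7 to 11 germ line genes were lower in Epi-Sox2. For immediate early genes the range was 6 to 8, and for glycolysis and hypoxia genes 11 to 15. Calls of named genes in Epi-Sox2 against EpiSC-GFP+ were lost 33 times on leaving out an array and 17 times under the other settings, and those of the change in the line difference 104 and 75 times. The calls of Uty, Col6a1, Col4a2, Krt18, Nes and Cdkn2b in Epi-Sox2 against EpiSC-GFP+ were lost most often.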
